A study of Homo sapiens with 9 samples.

Results

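The 44 genes described here act in the formation of exosomes, and all 44 were found by symbol among the 16366 genes of the deposited table. They are the tetraspanins CD9, CD63, CD81, CD82, CD151, TSPAN1, TSPAN3, TSPAN6 and TSPAN14, the syndecans SDC1 to SDC4, the syntenin group (SDCBP, PDCD6IP, ARF6, PLD2), 20 subunits of the ESCRT complexes with VPS4A, VPS4B and VTA1, the flotillins FLOT1 and FLOT2, and the neutral sphingomyelinases SMPD2 and SMPD3. Their level was read in Cal-27, an established line of tongue squamous carcinoma cells with the genotype given as WT. In 3 libraries the cells had received exosomes of cancer-associated fibroblasts (CAF) for 48 h, in 3 libraries hOMF exosomes for 48 h, and 3 libraries were the control. The labels write hOMF also as hMOF and do not spell it out, and they do not say whether the control cells received a vehicle. The RNA is that of the recipient cells, and neither the exosomes added nor those the Cal-27 cells released were measured.

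Exosomes are the vesicles that form when the membrane of a late endosome buds inward and that leave the cell when this multivesicular body meets the plasma membrane. ESCRT complexes gather ubiquitinated cargo and pinch the bud off, and a second route runs from the heparan sulphate chains of syndecans through the adaptor syntenin and ALIX to the late ESCRT machinery. Tetraspanins organise cargo in the vesicle membrane, and CD9, CD63 and CD81 serve as markers of isolated vesicles.

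Libraries held 11185672 to 12779101 expected counts, of which the 44 genes took 0.605% to 0.681%. Of the table, 12470 genes had enough counts to be tested, and SDC2 and SMPD3 of the 44 did not pass that filter. The first principal component of the libraries held 39.7% of the variance and set the 3 controls apart from the 6 exosome libraries. Control replicate 3 differed from the rest in content. It held 107 genes with at least 20 counts there and at most 2 in each other library, against 1 such gene in hOMF replicate 1 and 0 in the other 7 libraries, a threshold chosen after the values of SDC2 were seen. All 12 epithelial markers were at 1 FPKM or more on average, with KRT17 the most abundant. They summed to 7845.3 to 8023.5 CPM (counts scaled to library size with TMM factors, used to compare a gene between libraries) with CAF exosomes, 6735.6 to 7500.4 CPM with hOMF exosomes and 5739.9 to 7350.1 CPM in control. Of the 12, 5 keratins (KRT5, KRT14, KRT6A, KRT16, KRT17) were called higher with CAF exosomes and 2 (KRT5, KRT14) with hOMF exosomes, and 0 were called lower. Of 9 tested fibroblast markers, 4 (COL6A1, COL6A2, LUM, ACTA2) were called higher in each comparison with control. The other 5 (COL1A1, COL1A2, COL5A1, PDGFRB, FBLN1) were called in neither. The list summed to 534 to 590 CPM with CAF exosomes, 505 to 578 CPM with hOMF exosomes and 433 to 535 CPM in control, while COL3A1, DCN, FAP, POSTN and THY1 were at or below 0.16 CPM in every library. Endothelial markers summed to 17.9 to 20.4, 17.7 to 21.3 and 22.3 to 31.4 CPM in these groups and leukocyte markers to 46.8 to 53.3, 44.8 to 48.1 and 47.2 to 59.0 CPM. Of 3 tested endothelial markers, CDH5 was called lower in both comparisons with control. Of 4 tested leukocyte markers, ITGAM and CSF1R were called lower with hOMF exosomes and 0 were called with CAF exosomes. For ITGAM and CSF1R, every hOMF library lay below every control, as was so for 19.3% of all tested genes. ITGAM also lay wholly below control with CAF exosomes, at a log2 change of -0.57 that was not called, as did 18.2% of all tested genes. CSF1R had -0.30 with CAF exosomes, and those libraries overlapped the controls. Control replicate 3 held 94 counts of the leukocyte gene PTPRC, against 0 or 1 in each other library. A fit without that library was run over all genes, but the marker calls in that fit are not given here. Beside these marker lists, 9.51% of all tested genes were called higher and 8.64% lower with CAF exosomes. The shares with hOMF exosomes were 11.8% and 11.4%. The part of these lists in the results was not tested. In bulk RNA, fewer cells of a kind and less RNA per cell cannot be told apart. The labels call the 3 libraries of a group replicate samples without saying that they came from separate cultures, so the p-values speak of the spread among these samples alone, and it may be technical. In GENCODE 29, exons of CD63, CD81, CD82, CD151, TSPAN3, TSPAN14, PDCD6IP, HGS, STAM, TSG101, VPS37B, SNF8, CHMP1A, CHMP1B, CHMP3, CHMP4C, CHMP6, VPS4A, SMPD2 and SMPD3 overlap a gene on the opposite strand. Exons of TSG101, VPS36, VPS37B, CHMP3, CHMP4A, VPS4A and SMPD3 overlap one on the same strand. Reads of such pairs could be mixed, and whether the counting used strand was not stated in the labels. Expected counts were whole in 2 of 9 libraries for TSPAN14, in 4 for CD82, in 6 for VPS4A and in 8 for TSPAN6 and VTA1, and in all 9 for every other member, and values that are not whole arise where RSEM shares reads.

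Per length of transcript, the members ranged over several orders of magnitude in Cal-27 cells. As mean FPKM (fragments per length of transcript and depth of library) over the 9 libraries, CD63 stood at 550.0, CD9 at 547, CD151 at 386, SDC1 at 326 and CD81 at 300.8, the 5 highest. In all, 11 members reached 100 FPKM, 29 lay from 10 to below 100, 2 (STAM and STAM2) from 1 to below 10, and 2 (SDC2 and SMPD3) below 1. The median of the 42 tested members was 37.6 FPKM against 9.61 FPKM for the tested genes, of which 7.36% reached 100 FPKM. The 11 most abundant members were 7 of the 9 tetraspanins (all but TSPAN6 and TSPAN14) together with SDC1, SDC4, SDCBP and CHMP2A.

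**Figure D1:**
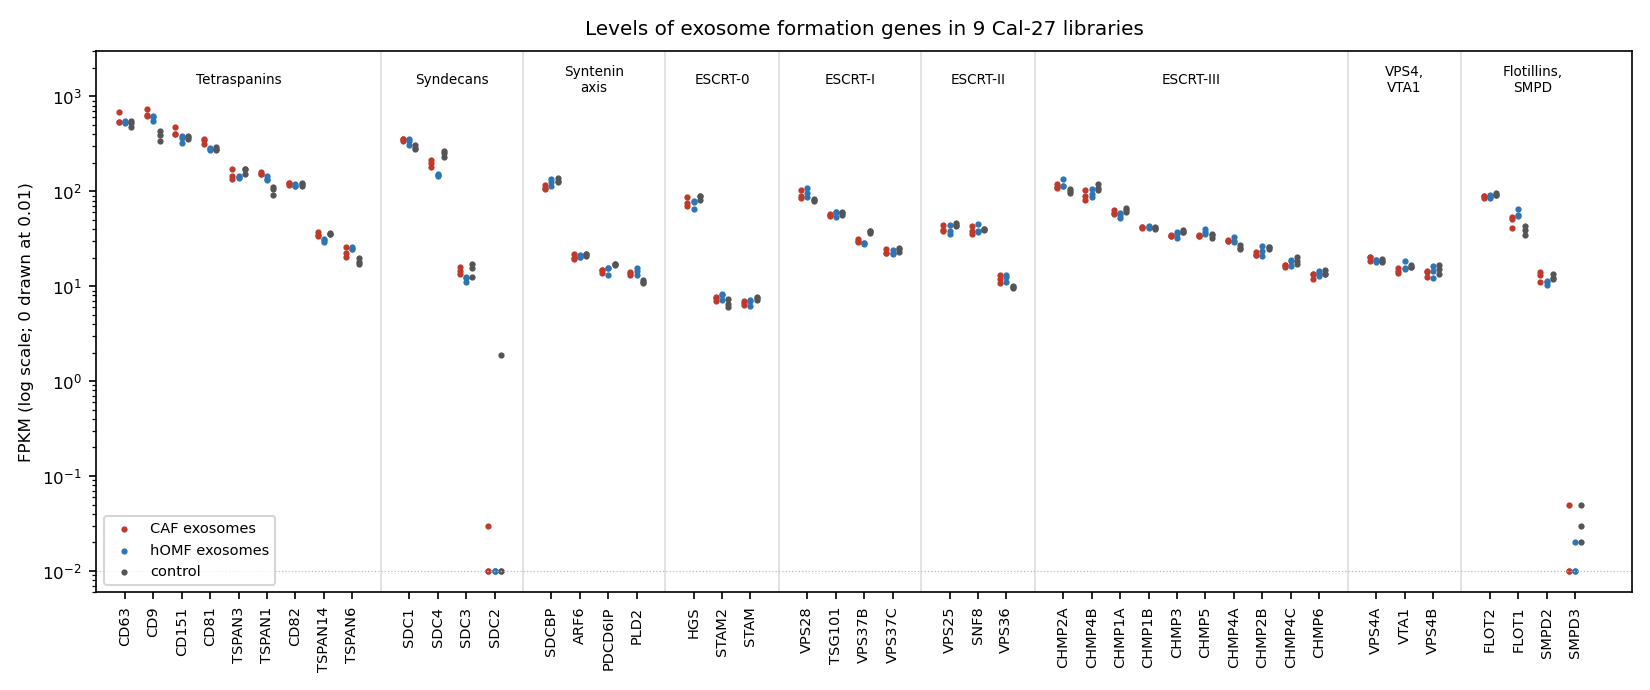
FPKM of the 44 genes (vertical axis, log scale, values of 0 drawn at 0.01) in each of the 9 libraries, grouped by role, with CAF exosomes in red, hOMF exosomes in blue and control in grey. Tetraspanins and syndecans head the plot, ESCRT subunits lie mostly between 10 and 100 FPKM, and SDC2 is seen above 1 FPKM in a single control library.

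With CAF exosomes, 10 of the 42 tested members changed: 4 tetraspanins and SDC1 rose, and SDC4, syntenin, ALIX and 2 ESCRT subunits fell. A gene is said to have changed where the adjusted p of edgeR's quasi-likelihood test was under 0.05. CD9, TSPAN1, TSPAN6, CD81 and SDC1 rose, and SDC4, VPS37B, CHMP4B, SDCBP and PDCD6IP fell, by 0.24 to 0.74 on the log2 scale upward and by 0.26 to 0.37 on that scale downward. The 10 members were 23.8% of those tested, and 18.2% of all tested genes changed in this comparison (9.51% higher, 8.64% lower). The members and all other lists were chosen with earlier results of these data known. Such shares, here and below, are therefore descriptions, and no list was tested as a set. The shares were also not matched for level, and the median FPKM of the members was above that of the tested genes. The median log2 change was -0.08 over the members and -0.01 over all tested genes, and 11 members lay wholly above and 12 wholly below control, against 18.0% and 18.2% of all genes. An unadjusted p under 0.05 was seen for 20 members and for 32.8% of all genes. Scaling moved the balance of directions. The members' calls were 5 higher and 5 lower as reported, 7 and 5 without TMM scaling, 8 and 4 with upper-quartile factors, 6 and 2 with limma on log2(FPKM + 1), and 7 and 9 with a correction for GC content and length. The share of higher calls over all genes was 52.4%, 63.1%, 62.4%, 64.0% and 43.6% in the same order. Without CAF replicate 3 the members called were 6, and without control replicate 1 they were 5. Calls over all tested genes were 2264 as reported, and 1343 and 2015 in these fits.

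With hOMF exosomes, 14 of the 42 tested members changed. FLOT1, CD9, TSPAN1, TSPAN6, PLD2 and VPS36 rose by 0.26 to 0.57 on the log2 scale. SDC4 fell by 0.79 and VPS37B by 0.46 on that scale, and SDC3, TSPAN3, HGS, PDCD6IP, CHMP1A and TSPAN14 fell by 0.23 to 0.39. The 14 members were 33.3% of those tested, and 23.2% of all tested genes changed (11.8% higher, 11.4% lower). The median log2 change was -0.10 over the members and 0.00 over all tested genes, and 9 members lay wholly above and 14 wholly below control, against 20.2% and 19.3% of all genes. An unadjusted p under 0.05 was seen for 22 members and for 36.7% of all genes. The calls were 6 higher and 8 lower as reported, 9 and 5 without TMM scaling, 7 and 5 with upper-quartile factors, 9 and 3 with limma on log2(FPKM + 1), and 6 and 13 with a correction for GC content and length. Over all genes the share of higher calls was 50.9%, 67.0%, 61.7%, 68.7% and 43.0% in the same order. Without hOMF replicate 2 the members called were 8, without control replicate 1 they were 9, and without control replicate 2 they were 8. Calls over all tested genes were 2896 as reported, and 1695, 2618 and 2005 in these fits. Both exosome groups were set against the same 3 control libraries, so the changes of a gene in the 2 comparisons are given side by side and are not independent of each other.

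**Figure D2:**
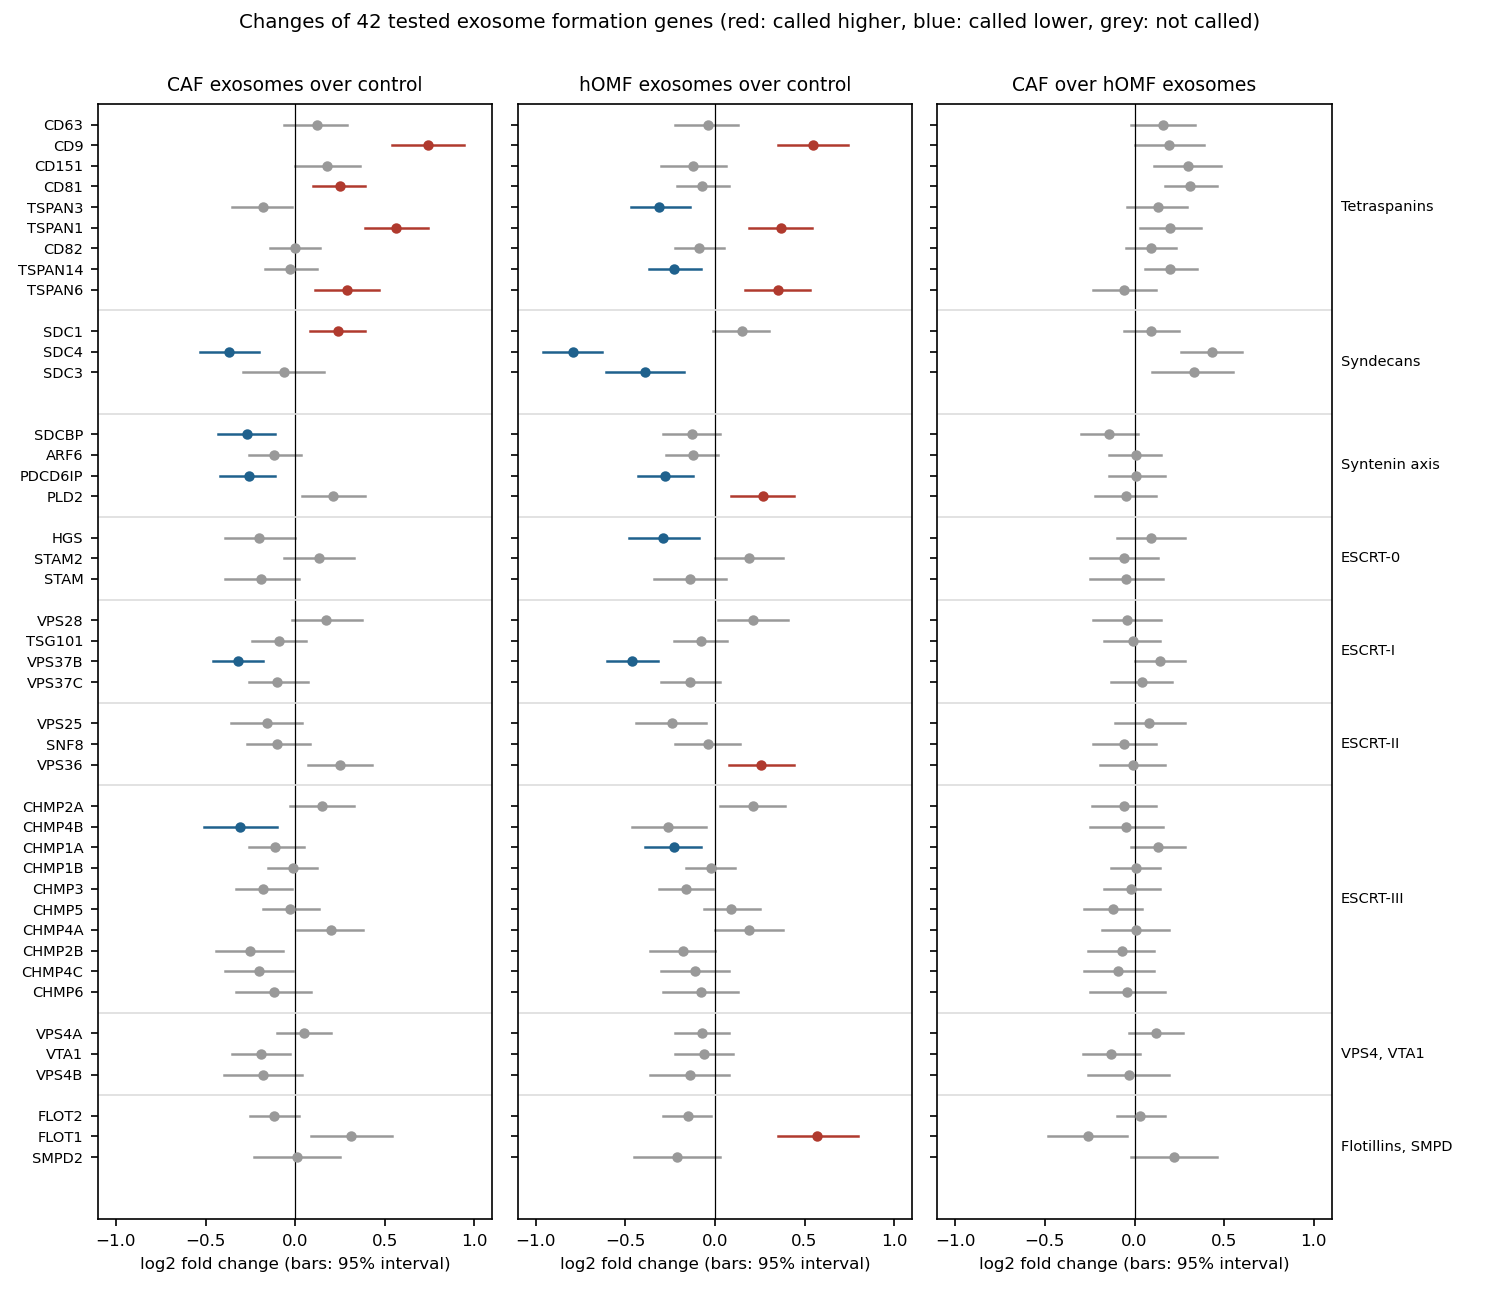
Log2 fold changes of the 42 tested genes with 95% intervals, grouped by role, for CAF exosomes over control, hOMF exosomes over control and CAF over hOMF exosomes, with called genes in red (higher) and blue (lower). CD9 lies farthest to the right with CAF exosomes at 0.74, SDC4 farthest to the left with hOMF exosomes at -0.79, and none of the 42 genes is called between the exosome sources.

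The promoters of 3 members are shown, chosen from those called in both comparisons with control that had a promoter sequence. CD9 had the highest mean log2 change over these comparisons, and SDC4 and VPS37B had the lowest. The promoters are RefSeq windows of build GRCh38.p14, 300 bases long and written 5′ to 3′ on the gene's strand. Each runs from 250 bases before to 50 bases after the first listed RefSeq start of the gene, and positions are counted from that start. The GENCODE start can differ from it. By GENCODE, VPS37B starts at 122896444 on the minus strand, so its window lies wholly inside the gene. CD9 starts at 6199715 by GENCODE, so most of its window lies inside the gene. The SDC4 window spans the GENCODE start of SDC4, at 45348424. Capitals mark a match, on either strand, to the E-box CACGTG, the AP-1 site TGANTCA, the GC box GGGCGG, the cyclic AMP response element TGACGTCA, the TATA box TATAAA, the SREBP site TCACNCCAC or the NF-kB site GGGNNTTCC, the last of which was added after the SDC4 sequence was seen.
CD9, chr12:6199696-6199995, plus strand: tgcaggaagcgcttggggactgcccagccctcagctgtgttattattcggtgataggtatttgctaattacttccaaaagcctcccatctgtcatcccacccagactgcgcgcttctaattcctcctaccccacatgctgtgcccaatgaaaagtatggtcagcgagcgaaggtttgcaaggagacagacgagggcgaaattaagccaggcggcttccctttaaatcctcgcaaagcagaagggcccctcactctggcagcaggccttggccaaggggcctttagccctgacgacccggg
SDC4, chr20:45348375-45348674, minus strand: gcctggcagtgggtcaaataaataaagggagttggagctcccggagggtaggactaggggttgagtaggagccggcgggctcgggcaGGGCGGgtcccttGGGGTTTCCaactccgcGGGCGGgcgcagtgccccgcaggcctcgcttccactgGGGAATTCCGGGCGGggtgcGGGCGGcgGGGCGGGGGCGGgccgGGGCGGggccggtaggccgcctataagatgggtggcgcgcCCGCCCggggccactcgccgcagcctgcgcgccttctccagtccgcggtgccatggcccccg
VPS37B, chr12:122896075-122896374, minus strand: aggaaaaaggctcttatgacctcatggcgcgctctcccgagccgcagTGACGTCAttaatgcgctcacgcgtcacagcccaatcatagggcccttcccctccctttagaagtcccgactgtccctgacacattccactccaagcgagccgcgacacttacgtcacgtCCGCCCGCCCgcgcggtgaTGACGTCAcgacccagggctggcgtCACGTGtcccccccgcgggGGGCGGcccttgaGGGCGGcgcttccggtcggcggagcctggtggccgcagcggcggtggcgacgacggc
The CD9 window held 0 matches and had a GC content of 55.3%. In the SDC4 window, at 74.0% GC, 8 GC boxes and 2 NF-kB matches were found, the NF-kB matches beginning 150 and 96 bases before the start (positions -150 and -96). The VPS37B window, at 67.7% GC, held 2 cyclic AMP response elements at -203 and -64 from the RefSeq start. It also held an E-box at -39 and 4 GC boxes, of which the pair at -83 and -79 overlap. By the GENCODE coordinates, all these VPS37B matches lie inside the gene. Of the 10202 tested genes with such a window, 70.5% held a GC box, 10.2% an E-box, 8.17% an NF-kB match, 5.53% a TATA box, 4.52% an AP-1 match, 3.22% a cyclic AMP response element and 1.01% an SREBP match. Among the 33 members with a window, the counts in that order were 23, 5, 6, 0, 2, 2 and 0. A match describes letters in a window and is not evidence of binding.

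Tetraspanins span the membrane several times and hold integrins, proteases and adhesion receptors together in microdomains. CD9, which takes part in adhesion, motility and membrane fusion, lies at chr12:6199715-6238271 on the plus strand (GENCODE 29, GRCh38). It had 699.8, 607 and 599.5 CPM with CAF exosomes, 586, 565 and 517 CPM with hOMF exosomes, and 426, 387 and 329 CPM in control. All 6 exosome libraries lay above every control library, and the 3 CAF libraries also lay above every hOMF library. CD9 rose 1.67-fold with CAF exosomes (log2 fold change 0.74, SE 0.09, 95% interval 0.54 to 0.94, adjusted p = 0.000124) and 1.46-fold with hOMF exosomes (0.55, SE 0.09, interval 0.35 to 0.74, adjusted p = 0.000705). TSPAN1, a tetraspanin of epithelial cells at chr1:46175073-46185958 on the plus strand, had 211, 199 and 202 CPM with CAF exosomes, 189.5, 169.7 and 175 CPM with hOMF exosomes, and 149, 144 and 121 CPM in control. Its libraries fell into the same order as those of CD9, with no overlap between any 2 groups. The rise was 0.56 (SE 0.08, adjusted p = 0.000325) with CAF exosomes and 0.37 (SE 0.08, adjusted p = 0.00463) with hOMF exosomes on the log2 scale. Calls of CD9 and TSPAN1 held under all 21 alternatives in both comparisons, and leaving out control replicate 3, the lowest control for both genes, gave 0.65 and 0.45 for CD9 and 0.48 and 0.28 for TSPAN1 in the same order.

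TSPAN6, a tetraspanin of endosomes, had 49.1, 44.4 and 42.2 CPM with CAF exosomes, 48.7, 46.7 and 45.9 CPM with hOMF exosomes, and 34.0, 40.3 and 36.8 CPM in control. The exosome libraries all lay above the controls, and the 2 exosome groups overlapped. TSPAN6 rose by 0.29 (SE 0.09, adjusted p = 0.0283) with CAF exosomes and by 0.35 (SE 0.09, adjusted p = 0.00869) with hOMF exosomes on the log2 scale. CD81, a partner of integrins and a vesicle marker, had 415, 428 and 380.0 CPM with CAF exosomes, 333, 323 and 329.5 CPM with hOMF exosomes, and 357, 339 and 335 CPM in control. Every CAF library lay above every control, and every hOMF library lay below every control. CD81 rose by 0.25 (SE 0.07, adjusted p = 0.0202) with CAF exosomes on the log2 scale, and its change with hOMF exosomes, -0.07 (SE 0.07, interval -0.21 to 0.08, adjusted p = 0.522), did not pass the test. The CAF call of CD81 ended, at 0.22 to 0.24 and adjusted p of 0.0534 to 0.0738, when CAF replicate 1, CAF replicate 2, control replicate 2 or control replicate 3 was left out. The CAF call of TSPAN6 ended, at 0.23 to 0.28 and adjusted p of 0.0741 to 0.112, without CAF replicate 1, control replicate 1 or control replicate 3.

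A pair of tetraspanins fell with hOMF exosomes. TSPAN3 had 254, 218 and 211 CPM with CAF exosomes, 214.5, 202 and 209 CPM with hOMF exosomes, and 266, 267 and 242 CPM in control. Its hOMF libraries lay below every control, while 1 CAF library lay among the controls. TSPAN3 fell by 0.31 (SE 0.08, adjusted p = 0.0101) with hOMF exosomes on the log2 scale, against -0.18 (SE 0.08, adjusted p = 0.114) with CAF exosomes. TSPAN14, which binds the protease ADAM10 and helps it leave the endoplasmic reticulum, had 194, 172 and 173 CPM with CAF exosomes, 151.5, 156 and 161 CPM with hOMF exosomes, and 184, 182 and 182 CPM in control. The hOMF libraries were lowest, and the CAF libraries lay on both sides of the control values. Its change was -0.03 (SE 0.07, adjusted p = 0.828) with CAF exosomes, and it fell by 0.23 (SE 0.07, adjusted p = 0.0261) with hOMF exosomes. Without hOMF replicate 2 the hOMF change of TSPAN3 was -0.29 with an adjusted p of 0.0568, and the TSPAN14 call ended, at -0.23 to -0.20 and adjusted p of 0.0555 to 0.0882, without any 1 of hOMF replicates 1 and 2 and the 3 controls. With limma on log2(FPKM + 1) TSPAN3 was not called, and with upper-quartile factors or no TMM scaling TSPAN14 was not.

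CD63, the lysosomal tetraspanin that marks multivesicular bodies, had the highest mean FPKM of the members, close to that of CD9, and did not pass the test in any comparison. It had 487, 407 and 405 CPM with CAF exosomes, 402, 375 and 385 CPM with hOMF exosomes, and 427, 408 and 363 CPM in control. The controls overlapped both exosome groups, and the CAF libraries lay above the hOMF libraries. Its log2 changes were 0.12 (interval -0.06 to 0.29) with CAF exosomes and -0.04 (interval -0.22 to 0.13) with hOMF exosomes. CD82 had changes of 0.00 and -0.09, and CD151, a partner of laminin-binding integrins, had 0.18 and -0.12 in the same order, none of which passed the test. Summed over the 9 tetraspanins, CAF libraries held 2750.8 to 3054.5 CPM, hOMF libraries 2427.5 to 2635.8 CPM and control libraries 2292.4 to 2560.6 CPM. In all, 4 tetraspanins rose and 0 fell with CAF exosomes, and 3 rose and 2 fell with hOMF exosomes. They were 44.4% and 55.6% of the 9, beside 18.2% (9.51% higher, 8.64% lower) and 23.2% (11.8% higher, 11.4% lower) of all tested genes. The 9 were chosen with earlier results of these data known, and their share was not tested.

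Syndecans carry heparan sulphate chains at the cell surface, and their cytoplasmic tails bind syntenin. SDC4, the syndecan of focal adhesions, lies at chr20:45325288-45348424 on the minus strand and had 502, 464 and 422 CPM with CAF exosomes, 347, 335 and 349.7 CPM with hOMF exosomes, and 633, 613 and 544 CPM in control. The 3 groups did not overlap, the hOMF libraries being lowest and the controls highest. SDC4 fell to 0.776 times control with CAF exosomes (log2 fold change -0.37, SE 0.08, interval -0.53 to -0.20, adjusted p = 0.0052) and to 0.576 times control with hOMF exosomes (-0.79, SE 0.08, interval -0.96 to -0.63, adjusted p = 1.24e-05). It was the member with the smallest p in the hOMF comparison, and both calls held under all 21 alternatives. SDC1, the main syndecan of epithelia, had 987, 1027.5 and 1047.7 CPM with CAF exosomes, 1020.0, 974 and 880.3 CPM with hOMF exosomes, and 852, 922 and 823 CPM in control. All CAF libraries lay above the controls, and the lowest hOMF library lay among them. SDC1 rose by 0.24 (SE 0.07, adjusted p = 0.0347) with CAF exosomes on the log2 scale and had a change of 0.15 (SE 0.07, adjusted p = 0.161) with hOMF exosomes, which was called higher without TMM scaling.

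SDC3, a syndecan best known from neurons, had 75.6, 63.4 and 69.7 CPM with CAF exosomes, 58.6, 56.3 and 51.7 CPM with hOMF exosomes, and 82.7, 75.8 and 60.1 CPM in control. The hOMF libraries lay below all others, and control replicate 3 was closer to them than to the other controls. SDC3 fell by 0.39 (SE 0.11, adjusted p = 0.0143) with hOMF exosomes, by 0.51 without control replicate 3, and had a change of -0.06 (SE 0.10, adjusted p = 0.702) with CAF exosomes. Its hOMF call ended, at -0.36 to -0.29 and adjusted p of 0.0567 to 0.0667, without hOMF replicate 3, control replicate 1 or control replicate 2, and with limma on log2(FPKM + 1). The CAF call of SDC1 ended, at 0.20 to 0.24 and adjusted p of 0.0574 to 0.113, without CAF replicate 2, CAF replicate 3, hOMF replicate 2, control replicate 1 or control replicate 3. SDC2 had 72 counts in control replicate 3, 1 count in CAF replicate 2 and 0 in the other 7 libraries. Tetraspanins of leukocytes were seen in the same control library, with 140 counts of CD37 and 40 of CD53 there and 0 or 1 in each other library, and PTPRC, the leukocyte antigen CD45, had 94 counts there and 0 or 1 elsewhere. These 3 genes were chosen after the values of SDC2 were seen, and where their transcripts came from was not tested. Without control replicate 3, the members called were 3 higher and 5 lower with CAF exosomes and 5 higher and 6 lower with hOMF exosomes. Calls over all tested genes fell as well, from 2264 to 1442 with CAF exosomes and from 2896 to 2014 with hOMF exosomes.

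**Figure D3:**
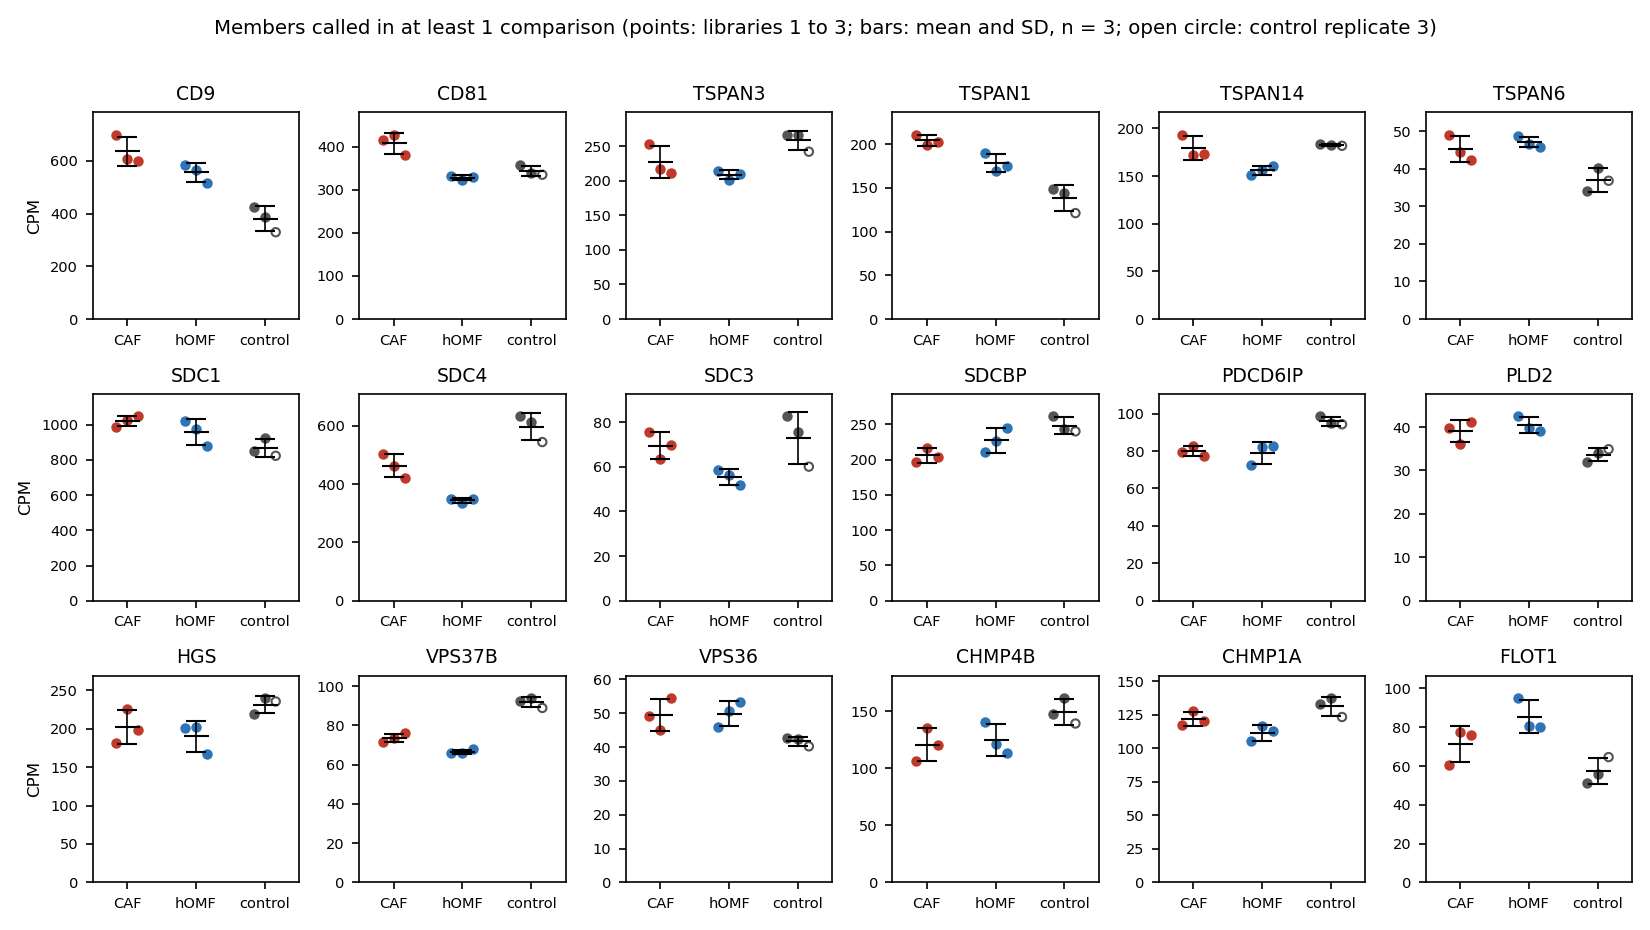
CPM (vertical axes, from 0) of the 18 members called in at least 1 comparison, with a point for each library and bars for the mean and SD of 3 libraries. CD9, TSPAN1 and TSPAN6 are higher and SDC4, PDCD6IP and VPS37B lower in all 6 exosome libraries than in the controls, and CD81 lies above the controls in the CAF libraries and below them in the hOMF libraries.

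Syntenin and ALIX link syndecans to the late ESCRT machinery, with ARF6 and the phospholipase PLD2 acting upstream of the budding step. SDCBP, which encodes syntenin, had 197, 217 and 204 CPM with CAF exosomes, 210.3, 226 and 246 CPM with hOMF exosomes, and 262, 243.5 and 240.2 CPM in control. CAF libraries all lay below the controls, and 1 hOMF library lay among them. SDCBP fell by 0.27 (SE 0.07, adjusted p = 0.0202) with CAF exosomes and had a change of -0.13 (SE 0.07, interval -0.29 to 0.03, adjusted p = 0.222) with hOMF exosomes. PDCD6IP, which encodes ALIX, had 79.6, 82.6 and 77.6 CPM with CAF exosomes, 72.4, 82.4 and 82.7 CPM with hOMF exosomes, and 98.6, 94.9 and 94.3 CPM in control. The 6 exosome libraries lay below every control. PDCD6IP fell by 0.26 (SE 0.07, adjusted p = 0.0194) with CAF exosomes and by 0.28 (SE 0.07, adjusted p = 0.0116) with hOMF exosomes on the log2 scale. PLD2 had 39.9, 36.2 and 41.1 CPM with CAF exosomes, 42.5, 39.8 and 39.1 CPM with hOMF exosomes, and 32.0, 34.0 and 34.9 CPM in control. All exosome libraries were higher than the controls, and PLD2 rose by 0.27 (SE 0.08, adjusted p = 0.0263) with hOMF exosomes, against 0.21 (SE 0.08, adjusted p = 0.077) with CAF exosomes. ARF6 had -0.12 in each comparison and did not pass the test.

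No call of this group held throughout when each library was left out in turn. The CAF call of SDCBP ended, at -0.26 to -0.23 and adjusted p of 0.0692 to 0.0756, without CAF replicate 1, CAF replicate 3 or control replicate 1, and that of PDCD6IP, at -0.27 to -0.23 and adjusted p of 0.054 to 0.0884, without CAF replicate 3, control replicate 1 or control replicate 2. The hOMF call of PDCD6IP ended without hOMF replicate 1 (-0.22, adjusted p = 0.0573), and that of PLD2, at 0.23 to 0.28 and adjusted p of 0.0647 to 0.0909, without hOMF replicate 1 or 2 or control replicate 1 or 2. SDCBP and PDCD6IP were also not called with limma on log2(FPKM + 1), and PLD2 was not with DESeq2.

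ESCRT-0 binds ubiquitinated cargo, ESCRT-I and ESCRT-II shape the bud, ESCRT-III filaments cut its neck, and the ATPases VPS4A and VPS4B with their cofactor VTA1 take the filaments apart. Of these 23 genes, all tested, 0 rose and 2 fell with CAF exosomes, and 1 rose and 3 fell with hOMF exosomes, that is 8.70% and 17.4% of them beside the 18.2% and 23.2% of all tested genes. An unadjusted p under 0.05 was seen for 9 and 11 of the 23 in the same order, and for 32.8% and 36.7% of all tested genes. VPS37B, an ESCRT-I subunit at chr12:122865328-122896444 on the minus strand, had 71.6, 73.4 and 75.9 CPM with CAF exosomes, 66.1, 66.1 and 67.8 CPM with hOMF exosomes, and 92.5, 94.0 and 88.9 CPM in control. The 3 groups were separate, with hOMF lowest and control highest. VPS37B fell by 0.32 (SE 0.07, adjusted p = 0.00418) with CAF exosomes and by 0.46 (SE 0.07, adjusted p = 0.000186) with hOMF exosomes on the log2 scale, and both calls held under all 21 alternatives. The other ESCRT-I subunits did not pass the test. TSG101, which reads ubiquitin and PTAP motifs and serves as a vesicle marker, had 68.7, 71.2 and 74.3 CPM with CAF exosomes, 67.6, 74.2 and 74.5 CPM with hOMF exosomes, and 79.1, 73.1 and 76.0 CPM in control, groups that overlapped. Its changes were -0.09 (interval -0.24 to 0.06) and -0.08 (interval -0.23 to 0.07), and those of VPS37C were -0.10 and -0.14, the CAF comparison first in each case. VPS28, the most abundant ESCRT-I gene by FPKM, had 60.6, 74.1 and 64.3 CPM with CAF exosomes, 76.6, 67.1 and 61.1 CPM with hOMF exosomes, and 60.1, 59.4 and 57.3 CPM in control. All exosome libraries lay above the controls, the nearest by less than 1 CPM, and its changes of 0.17 (interval -0.02 to 0.37, adjusted p = 0.21) and 0.21 (interval 0.02 to 0.41, adjusted p = 0.107) did not pass the test.

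HGS, the cargo-binding subunit of ESCRT-0, had 181, 226 and 199 CPM with CAF exosomes, 200.6, 202 and 167 CPM with hOMF exosomes, and 219, 240.1 and 235.5 CPM in control. The hOMF libraries lay below the controls, and 1 CAF library lay among them. HGS fell by 0.29 (SE 0.09, adjusted p = 0.0321) with hOMF exosomes, against -0.20 (SE 0.09, adjusted p = 0.144) with CAF exosomes, while its partners STAM and STAM2 did not pass the test. In ESCRT-II, VPS36, the ubiquitin-binding subunit, had 49.2, 45.0 and 54.5 CPM with CAF exosomes, 45.8, 50.5 and 53.2 CPM with hOMF exosomes, and 42.6, 42.3 and 40.2 CPM in control. All exosome libraries were above the controls, and VPS36 rose by 0.26 (SE 0.09, adjusted p = 0.0403) with hOMF exosomes, against 0.25 (SE 0.09, adjusted p = 0.0554) with CAF exosomes. VPS25, the most abundant ESCRT-II gene by FPKM, had 32.0, 36.0 and 31.1 CPM with CAF exosomes, 28.5, 30.2 and 34.8 CPM with hOMF exosomes, and 38.5, 37.1 and 35.2 CPM in control. The hOMF libraries lay below the controls and 1 CAF library reached them, and neither change passed the test, at -0.16 (interval -0.36 to 0.04) with CAF exosomes and -0.24 (interval -0.44 to -0.05, adjusted p = 0.0667) with hOMF exosomes.

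Among the 10 ESCRT-III genes 1 fell in each comparison. CHMP4B, the main filament subunit, had 106, 135 and 120.1 CPM with CAF exosomes, 140.3, 121 and 113 CPM with hOMF exosomes, and 147, 162 and 139 CPM in control. CAF libraries lay below the controls, and 1 hOMF library reached them. CHMP4B fell by 0.31 (SE 0.10, adjusted p = 0.0371) with CAF exosomes, against -0.26 (SE 0.10, adjusted p = 0.0635) with hOMF exosomes. CHMP1A, which recruits VPS4, had 117.5, 128 and 120.4 CPM with CAF exosomes, 105, 117 and 113 CPM with hOMF exosomes, and 133, 137.5 and 123 CPM in control. The hOMF libraries lay below the controls, and 1 CAF library lay among them. CHMP1A fell by 0.23 (SE 0.07, adjusted p = 0.028) with hOMF exosomes, against -0.11 (SE 0.07, adjusted p = 0.323) with CAF exosomes. CHMP2A, the most abundant ESCRT-III gene by FPKM, had 70.8, 77.2 and 74.3 CPM with CAF exosomes, 87.0, 71.7 and 72.8 CPM with hOMF exosomes, and 67.1, 70.6 and 62.7 CPM in control. Its exosome libraries lay above the controls by little, and it did not pass the test, with log2 changes of 0.15 (interval -0.03 to 0.33) with CAF exosomes and 0.21 (interval 0.03 to 0.39, adjusted p = 0.0826) with hOMF exosomes. The ATPase gene VPS4A had 70.5, 76.8 and 78.3 CPM with CAF exosomes, 71.8, 66.5 and 69.9 CPM with hOMF exosomes, and 70.5, 73.4 and 74.3 CPM in control, groups that overlapped. Its log2 changes were 0.05 and -0.07, those of VPS4B -0.18 and -0.14, and those of VTA1 -0.19 and -0.06, CAF before hOMF, and none passed the test.

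Apart from VPS37B, each ESCRT call ended when any 1 of several libraries was left out, some of them outside the groups compared. The CAF call of CHMP4B ended, at -0.31 to -0.22 and adjusted p of 0.0565 to 0.153, without CAF replicate 1 or 3, hOMF replicate 2 or control replicate 1 or 2, and the hOMF call of CHMP1A, at -0.27 to -0.19 and adjusted p of 0.0507 to 0.116, without any hOMF library or control replicate 1 or 2. The hOMF call of HGS ended, at -0.33 to -0.19 and adjusted p of 0.0501 to 0.14, without CAF replicate 3, hOMF replicate 2 or 3 or control replicate 2 or 3, and that of VPS36, at 0.22 to 0.28 and adjusted p of 0.0592 to 0.119, without hOMF replicate 2 or 3 or any control. Other tools or scalings also ended these calls, limma on log2(FPKM + 1) and upper-quartile factors those of CHMP4B, CHMP1A and HGS, and the omission of TMM scaling those of CHMP1A and HGS. The call of VPS36 ended with DESeq2 (0.26, adjusted p = 0.0593) and with the correction for GC content and length (0.18, adjusted p = 0.078).

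Flotillins are raft proteins of the endosome and neutral sphingomyelinases make the ceramide of an ESCRT-independent route. FLOT1 had 60.4, 77.3 and 76.0 CPM with CAF exosomes, 95.1, 80.8 and 80.1 CPM with hOMF exosomes, and 51.2, 56.1 and 64.6 CPM in control. The hOMF libraries lay above all others, and the lowest CAF library lay among the controls. FLOT1 rose 1.49-fold with hOMF exosomes (log2 fold change 0.57, SE 0.11, interval 0.35 to 0.80, adjusted p = 0.00144), a call that held under all 21 alternatives. With CAF exosomes its change was 0.31 (SE 0.11, interval 0.09 to 0.54, adjusted p = 0.0537), which became a call under 8 of 21 alternatives, among them DESeq2 and leaving out CAF replicate 1, hOMF replicate 1 or control replicate 3 (0.31 to 0.42, adjusted p of 0.0161 to 0.0438). FLOT2, the more abundant flotillin, had 209.9, 209 and 204 CPM with CAF exosomes, 210.3, 200.1 and 198 CPM with hOMF exosomes, and 223, 235 and 219.5 CPM in control. All exosome libraries lay below the controls, though its changes did not pass the test, at -0.12 (interval -0.25 to 0.02) with CAF exosomes and -0.15 (interval -0.29 to -0.02, adjusted p = 0.094) with hOMF exosomes. SMPD2 had 0.01 and -0.21, which did not pass it either. SMPD3, which encodes the neutral sphingomyelinase most often tied to exosome release, had 0 to 3 counts in each library, too few for a comparison.

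The source of the exosomes was then compared directly, CAF over hOMF. No member passed edgeR's test, and 2 of the 12470 genes did (0.016%), 1 higher and 1 lower (0.00802% each), while 8 members and 947 genes (7.59%) had an unadjusted p under 0.05. SDC4 was 1.35-fold higher with CAF exosomes (log2 fold change 0.43, SE 0.08, interval 0.26 to 0.60, adjusted p = 0.0948), CD81 had 0.31 (SE 0.07, interval 0.17 to 0.46, adjusted p = 0.195), SDC3 0.33 (SE 0.11, interval 0.10 to 0.55, adjusted p = 0.456) and CD151 0.30 (SE 0.09, interval 0.11 to 0.48, adjusted p = 0.368). CAF libraries lay wholly above hOMF libraries for each of these 4 genes. CD9 had 0.19 (interval -0.00 to 0.39, adjusted p = 0.662) and FLOT1 -0.26 (interval -0.48 to -0.04, adjusted p = 0.577), CAF over hOMF. In all, 10 members were wholly higher and 3 wholly lower with CAF exosomes, where 7.15% and 6.59% of all tested genes were. The tool mattered here, since DESeq2 called 2 members (SDC4, adjusted p = 0.000272, and CD81, adjusted p = 0.00364) of 36 genes. A correction for GC content and length called SDC4 (adjusted p = 0.0273), as did leaving out control replicate 3 (adjusted p = 0.0389), and under the other 18 alternatives 0 members were called.

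**Figure D4:**
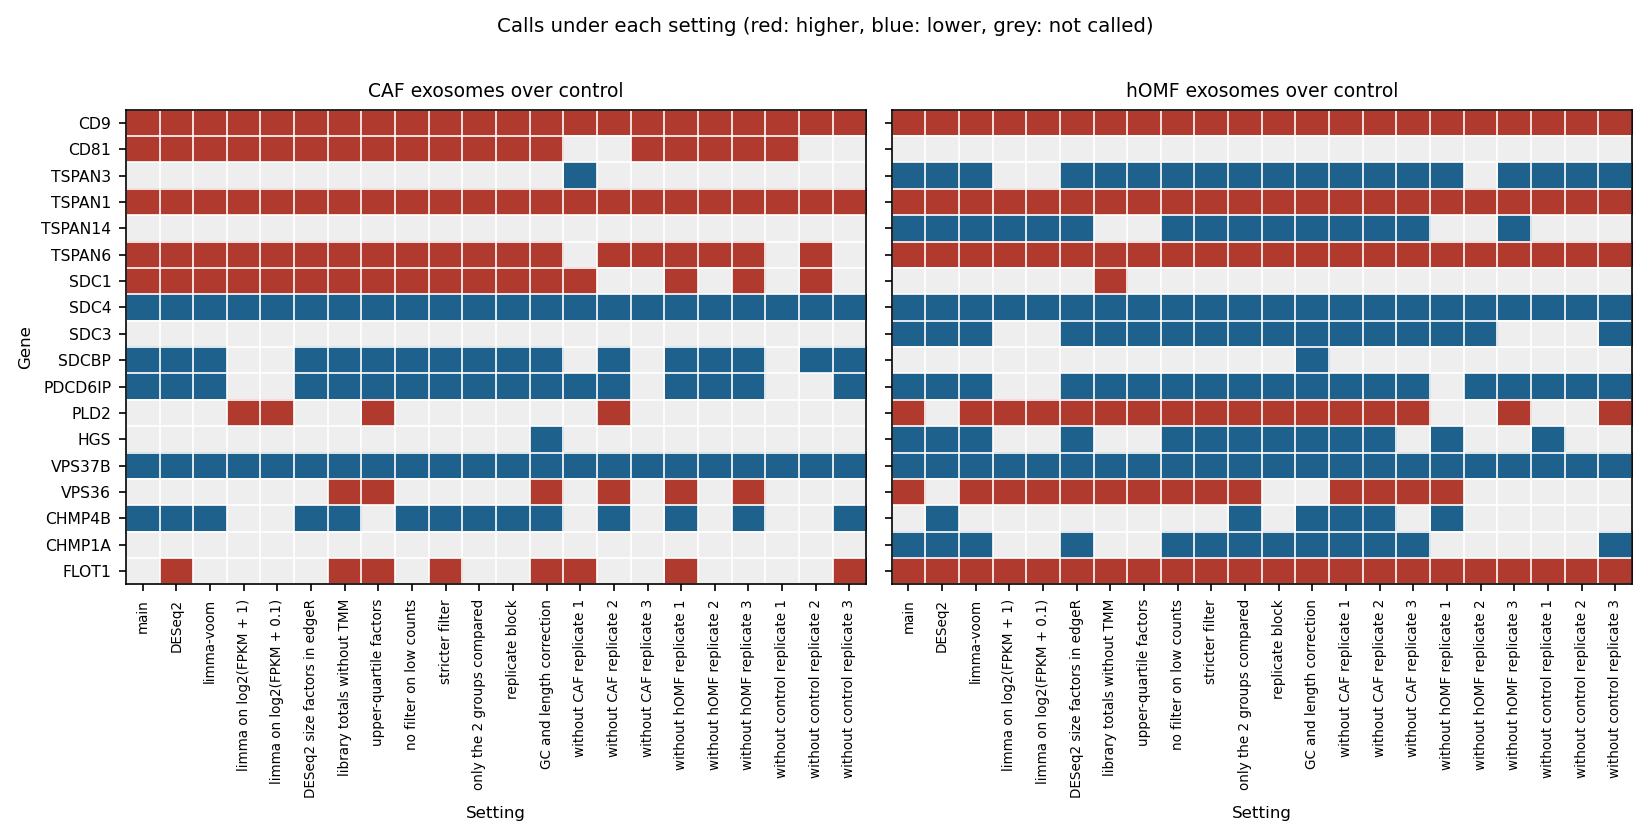
Calls of the 18 members (rows) with all libraries, marked main, and under each of 21 alternatives (columns) for CAF exosomes over control and hOMF exosomes over control, red for higher, blue for lower and grey for not called. CD9 and TSPAN1 are red and SDC4 and VPS37B blue in every column of both panels, and TSPAN6 and FLOT1 are red in every hOMF column, while each other call shown is lost under at least 1 setting.

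Other genes of the same pathways, 130 tested of 151 on 7 lists, were counted beside the members, with 9 higher and 16 lower with CAF exosomes and 9 higher and 19 lower with hOMF exosomes, 19.2% and 21.5% of those tested, near the 18.2% and 23.2% of all tested genes. Of 12 further tetraspanins 3 rose and 0 fell in each comparison, 25.0% of them, beside 9.51% and 11.8% of all tested genes called higher, CAF first. TSPAN31 averaged 37.3 ± 5.81 CPM with CAF exosomes, 33.8 ± 0.798 CPM with hOMF exosomes and 22.7 ± 1.78 CPM in control (SD, n = 3 each), with log2 changes of 0.71 (SE 0.11, adjusted p = 0.000393) and 0.57 (SE 0.11, adjusted p = 0.00138), CAF first. TSPAN13 had changes of 0.50 (adjusted p = 0.00323) and 0.48 (adjusted p = 0.00298) in that order. Among 12 proteins that tetraspanins hold in place, such as integrins, ADAM10 and EPCAM, 1 rose and 0 fell in each comparison, 8.33% of them. It was IGSF8, an immunoglobulin superfamily partner of CD9 and CD81, at 94.7 ± 6.33 CPM with CAF exosomes, 92.2 ± 10.0 CPM with hOMF exosomes and 71.8 ± 6.01 CPM in control (SD, n = 3 each), with changes of 0.40 (SE 0.09, adjusted p = 0.00654) and 0.36 (SE 0.09, adjusted p = 0.00893).

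Of 25 further ESCRT genes and accessory proteins, 0 rose and 2 fell in each comparison, 8.0% of them beside the 18.2% and 23.2% of all tested genes (8.64% and 11.4% lower). An unadjusted p under 0.05 was seen for 8 and 10 of the 25, CAF first, and for 32.8% and 36.7% of all tested genes. The ubiquitin ligase NEDD4L fell by 0.23 (adjusted p = 0.0414) with CAF exosomes and by 0.27 (adjusted p = 0.0161) with hOMF exosomes. CHMP7 fell by 0.24 (adjusted p = 0.0438) with CAF exosomes and the ligase NEDD4 by 0.30 (adjusted p = 0.018) with hOMF exosomes. Calls on this list were often lost, that of NEDD4L under 12 and that of CHMP7 under 14 of 21 alternatives with CAF exosomes. Of 22 tested genes of heparan sulphate synthesis, shedding and syntenin partners, 3 rose and 2 fell with CAF exosomes, and 1 rose and 4 fell with hOMF exosomes, 22.7% in each, which is near the background of all tested genes. SDCBP2, the paralogue of syntenin, averaged 5.42 ± 0.575 CPM with CAF exosomes, 5.16 ± 0.0419 CPM with hOMF exosomes and 8.6 ± 0.333 CPM in control (SD, n = 3 each), and fell by 0.67 (SE 0.14, adjusted p = 0.005) and by 0.73 (SE 0.14, adjusted p = 0.00186). PIP5K1C, a kinase that makes the lipid PIP2, fell by 0.29 (adjusted p = 0.012) with CAF exosomes and by 0.23 (adjusted p = 0.0336) with hOMF exosomes. These calls were lost under 2 and 11 of 21 alternatives. GLCE, the epimerase of heparan sulphate, fell by 0.29 (adjusted p = 0.028) with hOMF exosomes, a call lost under 7 of 21 alternatives. With CAF exosomes GLCE had a change of -0.17 (adjusted p = 0.208).

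Of 22 tested genes that dock and release the vesicles, 0 rose and 4 fell with CAF exosomes, and 0 rose and 3 fell with hOMF exosomes, 18.2% and 13.6% of them. Of all tested genes, 18.2% and 23.2% changed in either direction, and 8.64% and 11.4% were called lower. RAB35, a small GTPase of the recycling endosome that tethers multivesicular bodies, averaged 64.2 ± 2.49 CPM with CAF exosomes, 60.1 ± 2.5 CPM with hOMF exosomes and 84.0 ± 1.34 CPM in control (SD, n = 3 each). It fell by 0.39 (SE 0.07, adjusted p = 0.00147) and by 0.48 (SE 0.07, adjusted p = 0.000173). YKT6, a SNARE protein of membrane fusion, fell by 0.27 (adjusted p = 0.0115) and by 0.29 (adjusted p = 0.00543), CAF first in both cases.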

How the data were processed

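The authors deposited 1 table of human gene symbols that holds, per the file headers, expected counts, FPKM and TPM for each of 9 libraries, and the authors' group means, left aside here. Per the submitters' processing notes Bowtie2 2.2.5 and RSEM 1.2.8 made the authors' expected counts. The notes name a mouse build (mm10) although all identifiers are human. Which build the reads were counted on is therefore unclear, and coordinates come from GENCODE 29 on GRCh38. FPKM values deposited by the authors, which are scaled by transcript length and depth, were used to compare genes, and the deposited TPM values were not used.

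Expected counts (90.5% to 92.0% of values whole to within 0.001) were rounded. Genes were kept by filterByExpr (minimum count 10, minimum total 15) and libraries scaled by TMM. The quasi-likelihood test of edgeR 4.0.16 in R 4.3.3 (two-sided, group as the only term, all 9 libraries, 6 residual degrees of freedom) was adjusted by the Benjamini-Hochberg method over 12470 genes at a threshold of 0.05. SE values are the absolute log2 fold change divided by the square root of F, and intervals are 95% intervals. limma 3.58.1 and DESeq2 1.42.0 served in alternatives, python 3.11.15 and matplotlib 3.10.9 for the rest, and the fit was tested on simulated data.

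The 44 genes and all lists were chosen with earlier results of these data known. Values by library are given for members called in at least 1 comparison, for CD9, CD63, CD81, PDCD6IP, TSG101, SDCBP and SDC1 whatever their test, and for the member of each role with the highest mean FPKM. Of the 7 other lists, up to 2 called genes with the smallest p in each comparison are named, and other genes named were chosen after their values were seen. Alternatives were 3 other tests, other scalings, filters and pseudocounts (1 and 0.1), only the groups compared, a replicate block, a correction for GC content and length, and leaving out each library.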

Additional observations from a re-analysis of the deposited data

How the results depend on the processing

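Each of 21 alternatives was run on every comparison, and 0 called values changed sign, counting a change of sign only where the value was called. Leaving out each library in turn gave 5 to 13 members and 1343 to 2389 genes called with CAF exosomes, 8 to 15 members and 1695 to 3096 genes with hOMF exosomes, and 0 to 1 members and 0 to 8 genes between the sources. The count of genes fell by more than 1.5 times without CAF replicate 3 (1343), control replicate 2 (1389) or control replicate 3 (1442) with CAF exosomes, and without hOMF replicate 2 (1695) with hOMF exosomes. With CAF exosomes the correction for GC content and length called 16 members and 2977 genes, and between the sources it called 1 member and 11 genes. Between the sources DESeq2 called 2 members and 36 genes, and limma-voom, limma on log2(FPKM + 1) or log2(FPKM + 0.1), library totals without TMM and a fit of only the groups compared called 0 genes. DESeq2 called 4 members higher and 9 lower with hOMF exosomes, and 1187 genes higher and 1308 lower. The cause of these differences was not tested. No scaling moved the median of all genes by more than 0.06 on the log2 scale.

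Replicate numbers recur in all groups, and the labels state no pairing. Deviations of same-numbered libraries had correlations of -0.15 to 0.14 over 9 pairs, against -0.14 to 0.18 over 18 pairs of different number. These values cannot decide whether same-numbered libraries share more than a number, because each deviation is taken from a mean of only 3 libraries. A fit with the replicate block called 10 members and 2101 genes with CAF exosomes, 13 members and 2718 genes with hOMF exosomes, and 0 members and 2 genes between the sources. The member whose call ended under the block was VPS36 with hOMF exosomes (0.26, adjusted p = 0.0526). With 3 libraries a group, SE values of members were 0.06 to 0.11 on the log2 scale. Values that missed the threshold are not shown to be equal.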

Other observations

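Cells carry many proteins and lipid enzymes that are found in or on vesicles, and these were counted on lists of their own. Of 23 genes for common vesicle cargo, 0 rose and 4 fell with CAF exosomes, and 0 rose and 6 fell with hOMF exosomes, 17.4% and 26.1% of those tested. Of all tested genes, 18.2% and 23.2% changed in either direction, and 8.64% and 11.4% were called lower. HSPA8, the constitutive HSP70 chaperone, averaged 458 ± 22.7 CPM with CAF exosomes, 387 ± 43.6 CPM with hOMF exosomes and 691 ± 54.3 CPM in control (SD, n = 3 each). It fell by 0.59 (SE 0.09, adjusted p = 0.000338) with CAF exosomes and by 0.84 (SE 0.09, adjusted p = 1.74e-05) with hOMF exosomes on the log2 scale. The chaperone HSP90AA1 fell by 0.46 with CAF exosomes (adjusted p = 0.00139), and the glycolytic enzyme PKM by 0.40 with hOMF exosomes (adjusted p = 0.00067). Both genes were called lower in both comparisons, and 0 of these calls were lost under the 21 alternatives. Under the alternatives, HSP90AA1 had -0.51 to -0.37 with hOMF exosomes and PKM -0.36 to -0.30 with CAF exosomes.

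Of 14 tested genes of ceramide metabolism and lipid rafts, 2 rose and 4 fell with CAF exosomes, and 4 rose and 4 fell with hOMF exosomes, 42.9% and 57.1% of those tested beside 18.2% and 23.2% of all tested genes. The list was chosen with earlier results of these data known, and its share was not tested. SPHK1, the kinase that makes sphingosine 1-phosphate, averaged 16.3 ± 1.13 CPM with CAF exosomes, 16.1 ± 1.01 CPM with hOMF exosomes and 27.5 ± 2.71 CPM in control (SD, n = 3 each), and fell by 0.75 (SE 0.10, adjusted p = 0.000202) and by 0.77 (SE 0.10, adjusted p = 9.55e-05). CAVIN1, a coat protein of caveolae, averaged 151.5 ± 5.12 CPM with CAF exosomes, 147 ± 2.58 CPM with hOMF exosomes and 205 ± 5.99 CPM in control (SD, n = 3 each), and fell by 0.44 (SE 0.06, adjusted p = 0.000368) and by 0.48 (SE 0.06, adjusted p = 0.000115). The exosome comparisons share their control libraries, so these pairs of values are not independent of each other.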
